A study of Homo sapiens with 4 samples.

Results

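The m6A readers examined here were the 8 genes of the YTH and IGF2BP families, YTHDF1, YTHDF2, YTHDF3, YTHDC1, YTHDC2, IGF2BP1, IGF2BP2 and IGF2BP3, taken by gene name. All 8 were listed, with 32 of the 38510 transcripts and 8 of the 13036 genes in the data. N6-methyladenosine (m6A) is a mark that a methyltransferase complex writes on adenosines of RNA, and readers are the proteins that bind it. The YTH proteins hold the methylated base in a pocket of their YTH domain: YTHDF1, YTHDF2 and YTHDF3 act in the cytoplasm on translation and decay, YTHDC1 acts in the nucleus on splicing and export, and YTHDC2 is an RNA helicase best known from germ cells. The IGF2BP proteins bind RNA through KH domains, stabilise messages such as that of MYC, and are known as oncofetal proteins, abundant in embryos and in many tumours, liver cancer included.

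RNA was sequenced from HCCLM3, a human hepatoma cell line, carrying a lentiviral control hairpin (shCtrl, 2 libraries) or a lentiviral hairpin against KIAA1429 (shKIAA1429, 2 libraries). KIAA1429, now named VIRMA, is a large subunit of the m6A writer complex, so the comparison asked what its loss does to RNA levels. Both groups are stably infected cells of the same line, a single hairpin stands for the knockdown, and nothing says whether libraries of a group came from separate cultures, so the spread within a group may be technical. Values are FPKM, fragments scaled to transcript length and to the total mapped, given per annotated transcript, and a gene's value is the sum of its listed transcripts. Summed FPKM per library lay between 370253.5 and 390224.4, and read depth is unknown. Of 9 hepatocyte and epithelial markers, KRT8, KRT18 and SERPINA1 were listed and 6 (ALB, APOA1, APOA2, TTR, FGB and TF) had no listed transcript. No leukocyte or endothelial marker of 3 each was listed. Of 4 fibroblast markers 3 were listed, with summed values of 12.5 and 12.1 FPKM in shCtrl against 7.80 and 9.89 FPKM in shKIAA1429, COL1A2 having no listed transcript. Its members went different ways: LUM was at 7.92 and 7.04 FPKM against 2.73 and 2.88 FPKM (limma adjusted p-value 0.342), and COL1A1 at 3.54 and 4.95 FPKM against 4.90 and 6.76 FPKM (limma adjusted p-value 0.954). The part of these cells or markers in the results below was not tested.

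Some reader transcripts hold a short exon or a few added bases that others of the same gene lack, and these are shown because shares given below are counted by them. Sequences are from the GENCODE 44 transcripts on GRCh37, 5′ to 3′, with the named exon or added bases in capitals and the adjoining transcript bases in lower case. In that reference, YTHDF2-201 and YTHDF2-208 share all other exons and differ by a 25-base coding exon at chr1:29064170-29064194 on the plus strand. YTHDF1-202 has a second exon of the same length, at chr20:61846929-61846953 on the minus strand, and 20 of the 25 bases are identical.
YTHDF2-201 exon 2: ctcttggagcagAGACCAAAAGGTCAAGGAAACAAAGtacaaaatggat
YTHDF2-208 junction: ctcttggagcagtacaaaatggat
YTHDF1-202 exon 2: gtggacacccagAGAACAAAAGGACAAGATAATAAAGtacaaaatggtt

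IGF2BP2-201 lacks a coding exon of 129 bases, at chr3:185390329-185390457 on the minus strand, that the other 3 coding transcripts of the gene hold. IGF2BP2-204 has 18 bases, at chr3:185410551-185410568, that the other 3 lack, and the 4 transcripts also differ at their ends.
IGF2BP2-204 exon 10: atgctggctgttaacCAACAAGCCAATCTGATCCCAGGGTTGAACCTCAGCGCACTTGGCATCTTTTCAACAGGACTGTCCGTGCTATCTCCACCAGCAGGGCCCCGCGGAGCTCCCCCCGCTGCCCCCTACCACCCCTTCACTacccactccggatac
IGF2BP2-201 junction: atgctggctgttaacacccactccggatac
IGF2BP2-204 added bases: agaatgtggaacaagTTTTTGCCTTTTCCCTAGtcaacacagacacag

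YTHDC1-202 lacks a coding exon of 54 bases, at chr4:69198512-69198565 on the minus strand, that YTHDC1-201 and YTHDC1-207 hold. YTHDC1-207 has a further 24 bases, at chr4:69184448-69184471, that YTHDC1-201 lacks, and these transcripts too differ at their ends, with a last exon of 3937 bases in YTHDC1-201 and 1000 bases in YTHDC1-207.
YTHDC1-207 exon 6: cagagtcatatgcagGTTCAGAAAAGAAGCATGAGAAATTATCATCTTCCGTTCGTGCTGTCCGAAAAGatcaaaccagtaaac
YTHDC1-207 added bases: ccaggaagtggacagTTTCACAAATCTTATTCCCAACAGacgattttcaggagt

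Members of a family are paralogs, so it was asked how far reads could be shared between them. The coding sequences of YTHDF2-201 and YTHDF3-212 were identical in 68.5% of alignment columns, and those of IGF2BP1-201 and IGF2BP3-201 in 68.8%. IGF2BP1-201 and IGF2BP3-201 have 15 exons each, of which 11 have equal lengths at the same place. The longest stretch shared without a mismatch was 20 bases between YTHDF1-202 and YTHDF2-201, 17 bases between YTHDF2-201 and YTHDF3-212, and 22 bases between IGF2BP1-201 and IGF2BP2-204. Any longer stretch of these pairs held a mismatch, whereas transcripts of the same gene share whole exons.

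On GRCh37, the files place YTHDF1 at chr20:61826781-61847586 on the minus strand, YTHDF2 at chr1:29063271-29096287 on the plus strand and YTHDF3 at chr8:64081112-64125344 on the plus strand. YTHDC1 lies at chr4:69176105-69215807 on the minus strand and YTHDC2 at chr5:112849380-112930981 on the plus strand. IGF2BP1 lies at chr17:47074774-47133012 on the plus strand, IGF2BP2 at chr3:185361527-185542844 and IGF2BP3 at chr7:23349828-23510086, both on the minus strand. The 8 genes are thus on 8 chromosomes, and no member shares a locus with another.

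The readers spanned a wide range of levels per length. Per length, IGF2BP2 was the most abundant reader, at 63.8 and 50.4 FPKM in shCtrl against 54.1 and 50.9 FPKM in shKIAA1429, above 92.6% of all listed genes by its mean. IGF2BP1 followed at 34.5 and 27.4 FPKM in shCtrl against 25.2 and 35.9 FPKM in shKIAA1429. YTHDF1 was at 20.8 and 23.2 FPKM in shCtrl against 19.8 and 21.4 FPKM in shKIAA1429. The 4-sample ranges of these 3 genes did not overlap, nor did that of YTHDF1 overlap with that of IGF2BP3.

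IGF2BP3 was at 16.0 and 13.8 FPKM in shCtrl against 16.5 and 15.4 FPKM in shKIAA1429. YTHDF2 was at 9.07 and 12.4 FPKM in shCtrl against 9.37 and 18.6 FPKM in shKIAA1429. The range of YTHDF2 overlapped with those of IGF2BP3 and YTHDF3, so their order was not settled. YTHDC1 was at 8.05 and 6.83 FPKM in shCtrl against 6.62 and 6.34 FPKM in shKIAA1429, and YTHDC2 was lowest in shCtrl, at 4.24 and 3.65 FPKM, with 3.19 and 3.94 FPKM in shKIAA1429. The ranges of YTHDC1 and YTHDC2 did not overlap. YTHDF3, at 10.9 and 9.94 FPKM in shCtrl, had 5.33 and 2.38 FPKM in shKIAA1429, and ranked above YTHDC1 in both shCtrl libraries and below it in both shKIAA1429 libraries.

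**Figure D1:**
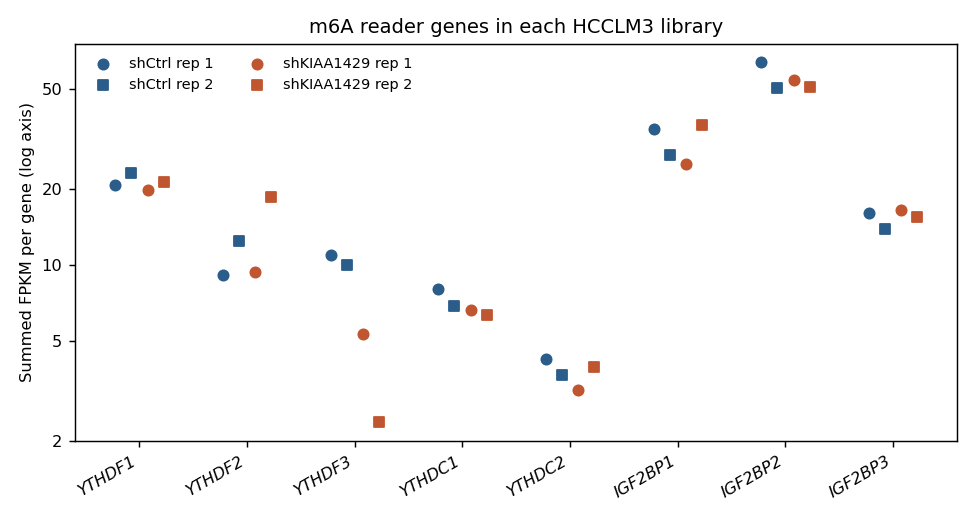
Summed FPKM of each reader gene (log axis) in the 4 libraries, with shCtrl in blue, shKIAA1429 in orange, circles for replicate 1 and squares for replicate 2. YTHDF3 is at 10.9 and 9.94 FPKM in shCtrl against 5.33 and 2.38 FPKM in shKIAA1429, while the points of IGF2BP2 lie between 50.4 and 63.8 FPKM.

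The 3 IGF2BP genes together held 114.3 and 91.6 FPKM in shCtrl against 95.9 and 102.2 FPKM in shKIAA1429. The YTHDF genes held 40.7 and 45.6 FPKM against 34.5 and 42.4 FPKM, and YTHDC1 and YTHDC2 together 12.3 and 10.5 FPKM against 9.81 and 10.3 FPKM. Within the YTHDF genes, YTHDF1 kept between 50.4% and 57.4% of the FPKM in all 4 libraries. YTHDF3 held 26.7% and 21.8% of it in shCtrl and 15.5% and 5.61% in shKIAA1429. The share of YTHDF2 was 22.3% and 27.2% in shCtrl and 27.1% and 43.98% in shKIAA1429.

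To ask whether reader expression differed with KIAA1429 knockdown, VIRMA was first checked in every library. It was at 9.37 and 14.1 FPKM in shCtrl against 6.90 and 8.52 FPKM in shKIAA1429, and its log2 fold change was -0.53 (SE 0.24, limma adjusted p-value 0.917). The groups did not overlap, but the difference did not pass the test. Leaving out shCtrl replicate 1 gave -0.80, and leaving out shCtrl replicate 2 gave -0.26. A negative fold change means a lower level in shKIAA1429. All were taken from log2(FPKM + 1), which understates changes at low levels, with limma across 11657 genes with at least 1 FPKM in at least 2 samples, and all 8 readers were tested. A gene passed when its log2 fold change was beyond 1 in either direction and its adjusted p-value below 0.05.

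No reader passed both thresholds, 0 of 8, beside 0.0% of all genes tested. A log2 fold change beyond 1 in either direction, with no test, was found for 1 reader, YTHDF3, beside 1.07% of all genes. The same reader was the 1 with an unadjusted p under 0.05, beside 5.63% of all genes, 2.65% lower and 2.98% higher in shKIAA1429. The knockdown pair lay wholly below the control pair for 2 of the 8, YTHDF3 and YTHDC1, beside 16.7% of all genes, and above them for 0 of the 8, beside 16.9%. With the length-weighted value described below, this held for YTHDF3 alone, 1 of the 8, and YTHDC1 overlapped at 26.1 and 23.6 against 22.8 and 25.03. The median log2 fold change of the 8 readers was -0.10, and that of all genes tested -0.01. The readers' median ranged from -0.20 to 0.01 when a replicate was left out, the latter without shCtrl replicate 1. In a culture, fewer cells that express a gene and less of its RNA per cell cannot be told apart.

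YTHDF3 had the largest difference among the readers. It averaged 10.4 ± 0.670 FPKM in control and 3.86 ± 2.09 FPKM in knockdown libraries (mean ± SD, n = 2 each). This is a log2 fold change of -1.30 (SE 0.33, 95% interval from -2.15 to -0.46), and the limma adjusted p-value, across all genes, was 0.665. The gap between groups exceeded the range within either group, yet the shKIAA1429 libraries themselves differed by more than the shCtrl libraries did. Without shKIAA1429 replicate 2 the log2 fold change was -0.85, and without shKIAA1429 replicate 1 it was -1.76.

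The other 7 readers had log2 fold changes from -0.17 to 0.30, and the smallest limma adjusted p-value among them was 0.979. For YTHDF1, which promotes translation of its targets, the log2 fold change was -0.09 with a 95% interval from -0.46 to 0.28. For IGF2BP3 it was 0.10, from -0.29 to 0.48, and for YTHDC1 it was -0.17, from -0.57 to 0.23. IGF2BP1 had an interval from -0.61 to 0.56, IGF2BP2 from -0.53 to 0.31 and YTHDC2 from -0.57 to 0.33. The intervals of these 6 genes leave out a log2 fold change of 1 in either direction, while that of YTHDF2, from -0.61 to 1.20, does not.

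Next, each of the 32 reader transcripts was examined, since a gene's sum can hide exchanges between its transcripts. The files class 20 of them as protein coding and 12 as processed transcripts, spliced RNAs with no open reading frame assigned. Of the 32, 18 reached 1 FPKM in at least 2 samples and were tested, and 14 did not. Of those tested, 0 passed both thresholds, beside 0.0% of the 24996 transcripts tested, and 0 had an unadjusted p under 0.05, beside 6.28%. A log2 fold change beyond 1, with no test, was found for 1 of the 18, YTHDF3-212, beside 7.23%. The knockdown pair lay wholly below the control pair for 3 of the 18, YTHDC1-207, YTHDC2-201 and IGF2BP2-204, beside 16.8% of all transcripts. It lay wholly above for 0 of the 18, beside 16.7%. Of all 32 listed, 6 lay wholly below and 4 wholly above, the 4 being under 1 FPKM and not tested. The matching rates over all listed transcripts, tested or not, were not computed.

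The FPKM of YTHDF3 sat on different transcripts in each library. YTHDF3-212, which has the shortest last exon of the gene's listed transcripts, 273 bases, was at 6.01 and 4.51 FPKM in shCtrl, at 4.89 FPKM in shKIAA1429 replicate 1 and listed at 0 in shKIAA1429 replicate 2. YTHDF3-216, with a last exon of 3103 bases, was at 3.96 FPKM in shCtrl replicate 1, at 0.364 FPKM in shCtrl replicate 2 and at 0.0030 and 0.0055 FPKM in shKIAA1429. YTHDF3-209, with the same last exon, was at 0.361 FPKM in shCtrl replicate 1, at 4.59 FPKM in shCtrl replicate 2 and listed at 0 in both shKIAA1429 libraries.

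YTHDF3-205, with a last exon of 3104 bases, was at 0.557 and 0.486 FPKM in shCtrl, at 0.440 FPKM in shKIAA1429 replicate 1 and at 2.37 FPKM in shKIAA1429 replicate 2. It thus made 99.8% of the gene's FPKM in shKIAA1429 replicate 2, while YTHDF3-212 made 91.7% in shKIAA1429 replicate 1. Replicates of the same group thus differed in their leading transcript. The groups did not overlap for YTHDF3-209, YTHDF3-216 and the gene's total, and overlapped for YTHDF3-205 and YTHDF3-212. How often groups do not overlap among listed transcripts that were not tested was not computed. YTHDF3-205, YTHDF3-209 and YTHDF3-216 reached 1 FPKM in a single library each and were not tested. YTHDF3-212 was tested, and its log2 fold change was -1.36 (SE 0.96, limma adjusted p-value 0.973). Without shKIAA1429 replicate 2 it was -0.08.

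The listed transcripts of YTHDF3 range from 2369 to 5192 bases in the reference, and a sum of FPKM gives a fragment more weight on a short transcript than on a long one. A second gene value, chosen after the data were seen, was therefore computed for all genes as FPKM times the spliced length in kilobases, summed per gene, a value in fragments scaled to the total mapped, with transcript length no longer divided out. By this length-weighted value YTHDF3 was at 39.5 and 38.3 in shCtrl and at 13.8 and 12.1 in shKIAA1429. The means were 38.9 ± 0.825 (SD, n = 2) and 13.0 ± 1.22 (SD, n = 2), a ratio of 0.334, and the replicates of each group now lay close together although different transcripts carried the value in each. On the log2 scale the change was -1.52 (SE 0.15, 95% interval from -1.92 to -1.11), between -1.61 and -1.43 when any replicate was left out. YTHDF3 ranked 14 of 12199 genes by unadjusted p, and its limma adjusted p-value was 0.212, where the smallest of any gene was 0.203, so that neither it nor any other gene passed, beside 0.0% called. An unadjusted p under 0.05 with a lower shKIAA1429 mean was found for 2.87% of all genes by this value, and groups that did not overlap, shKIAA1429 lower, for 16.9%. VIRMA by the same value was at 48.7 and 64.3 in shCtrl and at 33.3 and 38.8 in shKIAA1429, a ratio of 0.637.

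**Figure D2:**
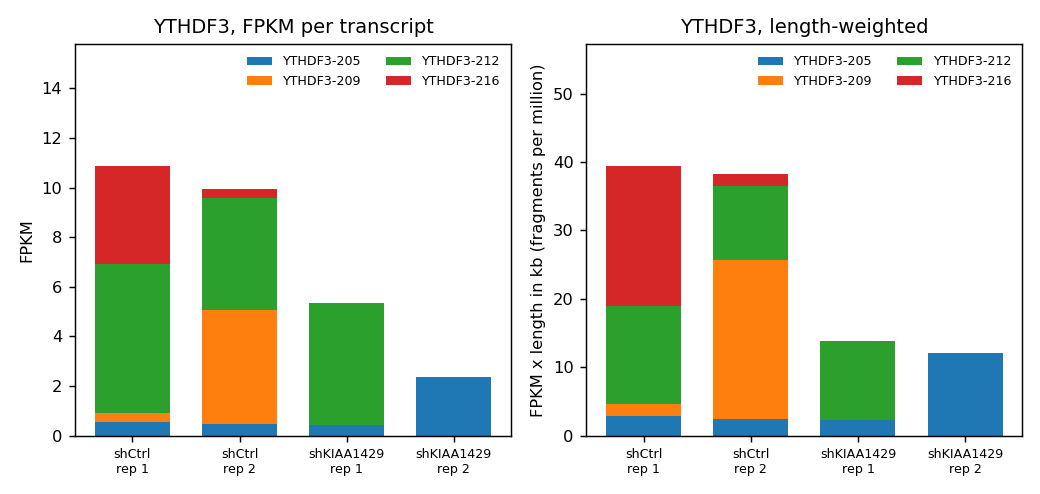
Left, FPKM of the 4 listed YTHDF3 transcripts stacked in each library. Right, the same values times spliced length in kilobases, in fragments scaled to the total mapped; the totals are 39.5 and 38.3 in shCtrl and 13.8 and 12.1 in shKIAA1429, and the transcripts that make them differ between replicates.

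YTHDF3 has a neighbour on the opposite strand, the noncoding gene YTHDF3-AS1, whose listed transcript ends before the start of the YTHDF3 transcripts and does not overlap them. It was at 0.530 and 0.846 FPKM in shCtrl against 0.796 and 0.473 FPKM in shKIAA1429, with overlapping groups.

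YTHDF2, the reader that recruits the CCR4-NOT deadenylase to m6A-marked RNA, had a transcript mixture that followed the replicate number in place of the group. YTHDF2-208, the transcript without the 25-base exon printed above, was listed at 0 in replicate 1 of both groups and was at 4.42 FPKM in shCtrl replicate 2 and 6.51 FPKM in shKIAA1429 replicate 2. YTHDF2-201, with that exon, was at 6.42 and 3.83 FPKM in shCtrl against 6.14 and 5.95 FPKM in shKIAA1429. Of both transcripts together, YTHDF2-208 made 53.5% in shCtrl replicate 2 and 52.3% in shKIAA1429 replicate 2. The reference gives YTHDF2-201 a coding sequence of 1737 bases and YTHDF2-208, whose reading frame starts later, 1587 bases. In that reference the spliced transcripts differ by 25 bases of 2744. The deposited loci start at chr1:29063271 for YTHDF2-201 and at chr1:29063452 for YTHDF2-208. By those loci the transcripts differ at their starts as well as in the 25-base exon.

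YTHDF2-205, a short processed transcript of 657 bases, showed the same arrangement, at 0.0700 and 2.49 FPKM in shCtrl against 0.101 and 4.25 FPKM in shKIAA1429. YTHDF2-206, which has a longer first exon, was the reverse, at 2.22 and 1.35 FPKM in shCtrl against 2.68 and 1.27 FPKM in shKIAA1429. By replicate number the values of YTHDF2-201, YTHDF2-205, YTHDF2-206, YTHDF2-208 and the gene's sum therefore did not overlap, while by group they did. How often values do not overlap by replicate number over all transcripts was not computed. The transcripts of YTHDF2 also share exons, so their values are not independent. Of all listed transcripts 7.8% were at exactly 0 in at least 1 library, and of the 32 reader transcripts 3 were, YTHDF2-208, YTHDF3-209 and YTHDF3-212. The log2 fold change of YTHDF2 at the gene level was 0.30 (SE 0.35) and became -0.16 without shKIAA1429 replicate 2.

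**Figure D3:**
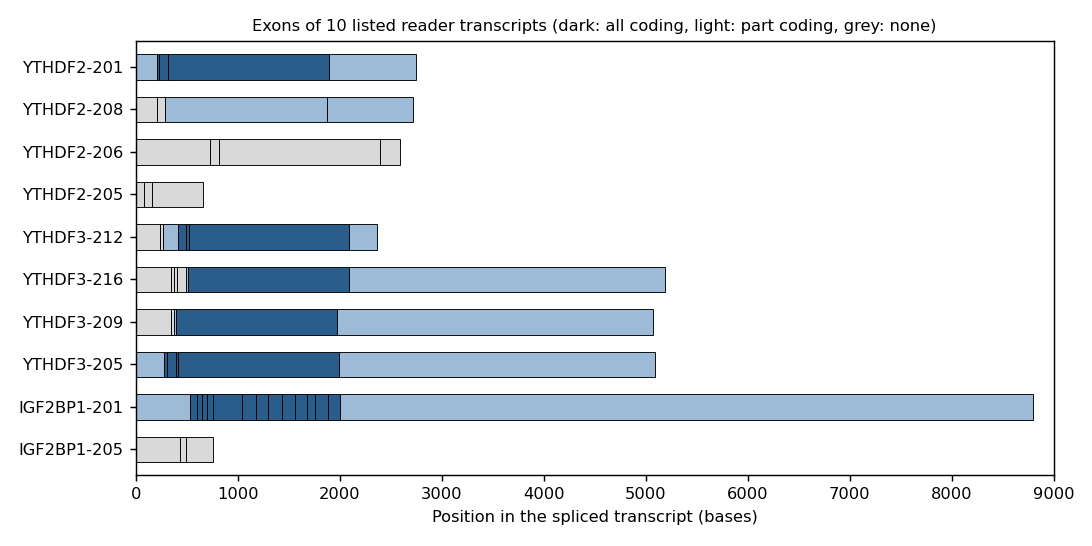
Exons of 10 listed YTHDF2, YTHDF3 and IGF2BP1 transcripts drawn end to end without introns; the axis is the position in the spliced transcript in bases, dark exons are wholly coding in the reference, light ones partly and grey ones not. YTHDF3-212 ends after 2369 bases and the other YTHDF3 transcripts after 5075 to 5192 bases, and IGF2BP1-205 has 754 bases beside the 8796 of IGF2BP1-201.

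YTHDC1 transcripts split by the 54-base exon and the 24 added bases shown above. Transcripts with the 54-base exon made 89.2% and 91.5% of the FPKM of its 3 long transcripts in shCtrl and 88.4% and 85.9% in shKIAA1429. The transcript with the 24 added bases, YTHDC1-207, made 72.9% and 72.2% in shCtrl, 69.9% in shKIAA1429 replicate 1 and 49.4% in shKIAA1429 replicate 2. YTHDC1-207 also differs from YTHDC1-201 in its last exon, so this share cannot be assigned to the 24 bases alone. YTHDC1-207 was at 5.25 and 4.63 FPKM in shCtrl against 4.36 and 2.90 FPKM in shKIAA1429, and its log2 fold change was -0.37 (SE 0.25, limma adjusted p-value 0.973). YTHDC1-201 was at 1.17 and 1.24 FPKM in shCtrl, at 1.15 FPKM in shKIAA1429 replicate 1 and at 2.14 FPKM in shKIAA1429 replicate 2.

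For YTHDC2 the full-length transcript YTHDC2-201 was at 3.81 and 3.36 FPKM in shCtrl against 2.48 and 3.21 FPKM in shKIAA1429. The shorter YTHDC2-207, with 17 exons where the full-length form has 30, was at 0.429 and 0.284 FPKM in shCtrl against 0.706 and 0.732 FPKM in shKIAA1429. Its share of the gene was 10.1% and 7.79% in shCtrl and 22.1% and 18.6% in shKIAA1429. The groups did not overlap in that share, but YTHDC2-207 stayed under 1 FPKM and was not tested. How often such shares do not overlap over all genes was not computed. The FPKM of YTHDC2-207 lay wholly higher in shKIAA1429, as did that of YTHDF1-201, YTHDF2-202 and IGF2BP1-203, all under 1 FPKM and not tested.

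IGF2BP1 had a steady coding transcript and a variable short one. IGF2BP1-201, the only transcript of the gene classed as coding, was at 22.7 and 25.1 FPKM in shCtrl against 23.8 and 25.9 FPKM in shKIAA1429. IGF2BP1-205, a processed transcript of 3 exons from the start of the gene, was at 10.2 and 0.944 FPKM in shCtrl against 0.237 and 8.60 FPKM in shKIAA1429. It was high in 1 library of each group, and these carried different replicate numbers. With the length-weighted value, in which this transcript never made more than 3.68% of the gene, IGF2BP1 was at 208.6 and 222.5 in shCtrl and at 210.5 and 235.0 in shKIAA1429. Its log2 fold change was then 0.05 (SE 0.12) in place of -0.03 (SE 0.23).

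IGF2BP2, the most abundant reader per length, divided its FPKM mainly over IGF2BP2-202, IGF2BP2-203 and IGF2BP2-204, 3 of its 4 coding transcripts. By the length-weighted value it lay below IGF2BP1 in every library, at 175.6 and 136.2 in shCtrl and 147.7 and 131.0 in shKIAA1429. Transcripts with the 129-base exon made between 97.5% and 98.0% of the coding FPKM in all 4 libraries. IGF2BP2-204, with the 18 added bases, was at 26.4 and 21.1 FPKM in shCtrl against 20.8 and 17.5 FPKM in shKIAA1429, a share of the coding FPKM of 43.96% and 46.0% against 40.3% and 37.9%. The groups did not overlap in this share, while the log2 fold change of the transcript was -0.29 (SE 0.19, limma adjusted p-value 0.973). IGF2BP2-203, with another start, was at 23.2 and 16.7 FPKM in shCtrl against 21.7 and 20.8 FPKM in shKIAA1429. Its share of the gene was 36.3% and 33.2% against 40.04% and 40.9%, so the groups did not overlap in this share either, in the other direction. The FPKM of IGF2BP2-203 itself overlapped between groups. Shares of the same gene are not independent, since a lower share of 1 transcript raises those of others. How often shares do not overlap over all genes was not computed. YTHDF1 and IGF2BP3 each had a dominant transcript as well. YTHDF1-202 made between 96.2% and 97.5% of YTHDF1, and IGF2BP3-201 between 88.6% and 91.2% of IGF2BP3, in all 4 libraries.

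**Figure D4:**
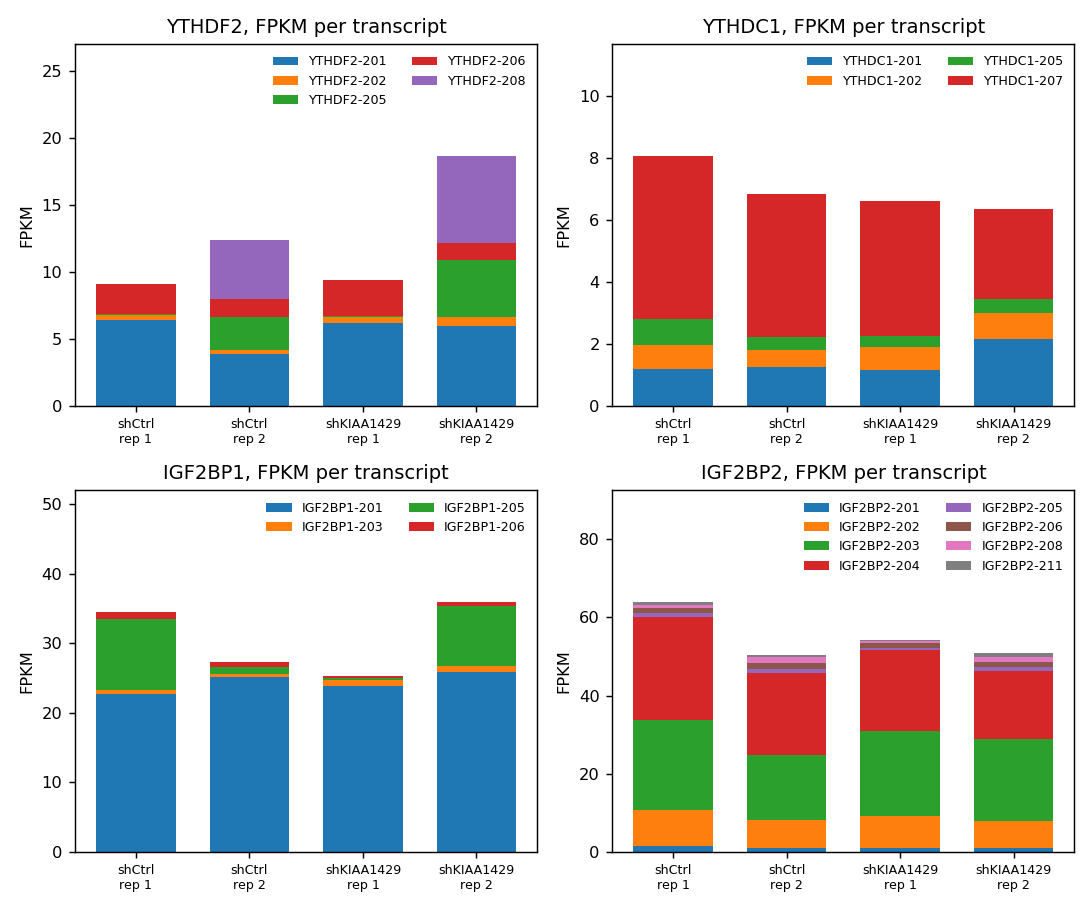
FPKM of each listed transcript of YTHDF2, YTHDC1, IGF2BP1 and IGF2BP2, stacked per library. YTHDF2-208 appears only in the libraries numbered 2, at 4.42 and 6.51 FPKM, IGF2BP1-205 is at 10.2 and 8.60 FPKM in 1 library of each group, and IGF2BP2-204 is lower in both shKIAA1429 libraries than in both shCtrl libraries, at 20.8 and 17.5 against 26.4 and 21.1 FPKM.

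**Figure D5:**
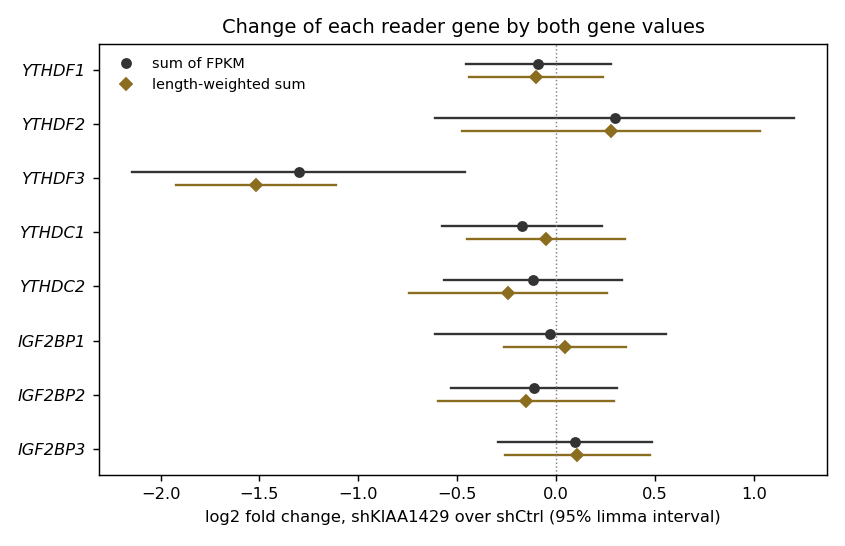
Log2 fold change of each reader gene, shKIAA1429 over shCtrl, with its 95% limma interval, for the sum of FPKM (circles) and the length-weighted sum (diamonds). The YTHDF3 values are -1.30 and -1.52, and the intervals of the other 7 genes contain 0 with both values.

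Other genes of the m6A pathway were read from lists chosen with earlier results known. Of 11 writers and erasers, VIRMA included, 0 passed and 0 had an unadjusted p under 0.05, beside 5.63% of all genes. The list had a median log2 fold change of 0.01, from -0.10 without shKIAA1429 replicate 2 to 0.12 without shCtrl replicate 2. By the length-weighted value 2 of the list had an unadjusted p under 0.05 and were lower, beside 2.87% of all genes: VIRMA and METTL14. VIRMA is the target of the hairpin, so its count says nothing about the list. In the lists that follow, the genes under 0.05 by this value were the same as by FPKM: FXR2, lower, and CD44 and IGF2, higher. METTL14, a core subunit of the writer, was at 7.94 and 10.7 in shCtrl against 5.76 and 5.30 in shKIAA1429 by the length-weighted value (limma adjusted p-value 0.801). By FPKM it was at 1.19 and 1.61 FPKM in shCtrl against 0.867 and 0.797 FPKM in shKIAA1429. In the FPKM fit, where its unadjusted p was not under 0.05, METTL14 met the filter only through shCtrl. ALKBH5, an eraser with the highest level of this list, was at 31.5 and 36.9 FPKM in shCtrl against 31.7 and 37.2 FPKM in shKIAA1429. Of 11 other m6A-binding proteins, 0 passed both thresholds, 1 had an unadjusted p under 0.05 and was lower (FXR2), beside 2.65% of all genes, and the median was -0.02. FXR2, a paralog of the fragile X protein, was at 37.9 and 39.5 FPKM in shCtrl against 29.5 and 31.1 FPKM in shKIAA1429, and its log2 fold change was -0.34 (SE 0.13, limma adjusted p-value 0.884). PRRC2A, the most abundant of them, lay between 147.5 and 158.1 FPKM.

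Partner proteins of the readers, 11 symbols with 12 gene identifiers, gave 0 that passed and 0 at an unadjusted p under 0.05, beside 5.63% of all genes, with a median of -0.03 that ranged from -0.07 to 0.04 when a replicate was left out, the latter without shKIAA1429 replicate 1. PABPC1, the poly(A)-binding protein, led this list at 314.9 and 277.2 FPKM in shCtrl against 346.7 and 325.2 FPKM in shKIAA1429. CNOT1, the scaffold of CCR4-NOT, is named after its values were seen: it was at 45.6 and 47.7 FPKM in shCtrl, at 44.7 FPKM in shKIAA1429 replicate 1 and at 19.1 FPKM in shKIAA1429 replicate 2.

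Of 9 RNAs known to be bound by IGF2BP proteins, 6 were listed and tested, and H19, LIN28B and MAPK4 had no listed transcript. None of the 6 passed both thresholds by limma, 0 in all, 2 had an unadjusted p under 0.05 and were higher, CD44 and IGF2, beside 2.98% of all genes. The median, IGF2 included, was 0.22, and 0.07 without shCtrl replicate 1. CD44, a surface receptor for hyaluronan, was at 159.5 and 177.0 FPKM in shCtrl against 203.5 and 214.0 FPKM in shKIAA1429, and its log2 fold change was 0.31 (SE 0.12, limma adjusted p-value 0.884). IGF2, the growth factor whose messenger named the family, was at 0.268 and 0.207 FPKM in shCtrl against 1.17 and 1.97 FPKM in shKIAA1429, and its log2 fold change was 1.04 (SE 0.21, limma adjusted p-value 0.538). IGF2 met the filter only through the shKIAA1429 libraries, in which it is higher. Its count among those under 0.05 and its part in the median therefore support nothing about the list. ACTB, the RNA on which chick IGF2BP1 was studied as a zipcode-binding protein, lay between 185.3 and 195.0 FPKM. Of 7 oncofetal genes of hepatoma, IGF2 and SALL4 were listed, and AFP, GPC3, H19, LIN28B and DLK1 had no listed transcript.

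For each reader, the tested gene with the most similar profile was found by the root mean square difference of log2(FPKM + 1), each gene centred on its own mean, over the 4 samples. For YTHDF3 it was IFI6, an interferon-induced gene, at 95.5 and 68.7 FPKM in shCtrl against 56.0 and 25.8 FPKM in shKIAA1429, with a difference of 0.18. For YTHDF2 it was STMN1, a microtubule-destabilising protein, at 79.5 and 99.8 FPKM in shCtrl against 77.4 and 149.7 FPKM in shKIAA1429, with a difference of 0.03. The others were MPRIP for YTHDF1, ZEB2 for YTHDC1, STK17A for YTHDC2, SLC12A4 for IGF2BP1, TSTD2 for IGF2BP2 and INSR for IGF2BP3. The likeness is over 4 samples only, picked as the closest of 11657 genes.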

How the data were processed

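The methods of the study describe TopHat alignment, HTSeq gene counts and a negative binomial test. The submitters' processing notes name hg19 and Bowtie2 2.1.0. The deposited files hold FPKM per annotated transcript, made by the authors with a tool not given in the sources used here, and every listed transcript reached at least 0.504 FPKM in some library. Strand and multiple-mapping rules are likewise not given. Depth is unknown, so no counting error is attached to values.

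FPKM was summed per gene. Genes or transcripts with at least 1 FPKM in at least 2 samples were tested on log2(FPKM + 1) with limma 3.58.1 in R 4.3.3 (eBayes with trend, two-sided, group only), with Benjamini-Hochberg adjustment across 11657 genes or 24996 transcripts. The fit was tested on data simulated from its own model, which does not show how it performs on these FPKM. With 2 samples against 2, an exact permutation test cannot go below p = 0.333. All 32 reader transcripts matched GENCODE 44 on GRCh37 by identifier, ignoring the version, and exons, lengths and sequences are from there. Transcript ends differ for some, and lengths used by the authors may differ. Coding sequences were aligned with Biopython 1.88.

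The members, gene lists and tests were chosen with earlier results of these data known. The text names all readers, list genes with an unadjusted p under 0.05 or the highest mean, and 1 gene of similar profile per reader. The length-weighted sum was chosen with the values in view. Figures were drawn with matplotlib 3.10.9.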

Additional observations from a re-analysis of the deposited data

How the results depend on the processing

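The data hold 2 libraries a group at unknown depth. The count past both thresholds was 0 of all genes and 0 of the 8 readers with no filter, at least 1 FPKM in every sample, a pseudocount of 0.1, upper quartile scaling, the replicate block, a robust variance, the adjusted p alone and the length-weighted sum. With the fold change alone it was 125 genes and 1 reader, and 1807 transcripts and 1 reader transcript, because no test was then applied. Leaving out a replicate, which leaves a lone sample assumed to vary like the others, gave 0 to 1 genes, the 1 without shCtrl replicate 1. YTHDF3 was lower in shKIAA1429 under all 13 alternatives, from -1.76 to -0.85 without a replicate and from -1.52 to -1.29 otherwise. Its adjusted p-value ranged from 0.440 to 0.999 without a replicate and from 0.212 to 0.960 otherwise.

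IGF2BP1 turned to 0.0540 with coding transcripts only, to 0.0540 with the highest transcript only and to 0.0460 with the length-weighted sum, each of which gives its short transcript little or no weight. Leaving out a replicate changed the sign within these ranges: YTHDF2 -0.16 to 0.76, YTHDC2 -0.24 to 0.0026, IGF2BP1 -0.27 to 0.22, IGF2BP2 -0.28 to 0.0586 and IGF2BP3 -0.0041 to 0.19. It did so for 11 of the 18 transcripts: YTHDF2-201 -0.0757 to 0.54, YTHDF2-205 -0.81 to 1.44, YTHDF2-206 -0.28 to 0.42, YTHDF2-208 -1.22 to 1.69, YTHDC1-201 -0.0350 to 0.51, IGF2BP1-201 -0.0151 to 0.12, IGF2BP1-205 -1.91 to 1.04, IGF2BP2-201 -0.33 to 0.0161, IGF2BP2-202 -0.23 to 0.0860, IGF2BP2-203 -0.12 to 0.33 and IGF2BP2-208 -0.48 to 0.17. The median of the other m6A-binding proteins ranged from -0.0410 to 0.0334 without a replicate and was -0.0622 with the length-weighted sum, and that of the hepatocyte and epithelial markers from 0.0734 to 0.17; the cause was not tested.

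The groups share replicate numbers, which the labels tie to no shared culture or day. Distances of each sample from its group mean correlated between equal numbers at 0.32 across genes and 0.0642 across transcripts. With 2 samples a group, both pairs must give the same correlation, so the pairs do not check each other. With the replicate block YTHDF3 stayed at -1.30 with a limma adjusted p-value of 0.371, YTHDF2 at 0.30 with 0.570 and VIRMA at -0.53 with 0.420, and the block changed no call.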
